A study of Homo sapiens with 6 samples.

Results

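A set of 39 genes of glucose breakdown and of the response to low oxygen was followed in DU-145 cells, out of 60662 genes in the deposited count table. The genes were taken by symbol and fall into 18 glycolytic enzymes, 10 targets of the hypoxia-inducible factors (HIF) outside glycolysis, and 11 others (glucose and lactate transporters, enzymes that set fructose-2,6-bisphosphate, the mitochondrial gate for pyruvate and the HIF alpha subunits). DU-145 is an androgen-independent human prostate cancer cell line, here with a hairpin RNA that targets MUC1, a transmembrane mucin, under a tetracycline-inducible promoter. The 3 DOX-positive cultures received doxycycline (DOX), which switches the hairpin on, for 7 days, and the 3 DOX-negative cultures received vehicle for the same time. All 6 cultures were then given interferon-gamma at 10 ng/ml for 24 hours, so both groups carry the hairpin construct and the cytokine. Cells left without interferon-gamma, and cells given DOX with a control hairpin, are not analysed here, so effects of DOX itself and of the hairpin cannot be told apart.

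Glycolysis splits glucose into pyruvate in the cytosol, and lactate dehydrogenase then reduces pyruvate to lactate while restoring the NAD+ that the pathway consumes. When oxygen is scarce, the prolyl hydroxylases that mark HIF alpha subunits for destruction slow down, and HIF binds DNA at short sites with the core letters ACGTG or GCGTG. Its known targets include most glycolytic enzymes, glucose transporters, angiogenic factors such as VEGFA, mitophagy genes, and EGLN3, one of the hydroxylases that switch HIF off. HIF alpha subunits are controlled mainly at the level of the protein, which these mRNA counts do not show.

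Promoter windows of 3 genes are shown because these genes carry the contrast in the set: LDHA fell, PGK1, a neighbour in the same pathway, rose, and ADM had the largest rise among the 39. Each window runs from 250 bases before to 50 bases after a transcription start in RefSeq (GRCh38.p14, plus strand in all 3 cases), 5′ to 3′, with ACGTG and GCGTG, read on either strand, in capitals. The windows are chr11:18394313-18394612 for LDHA, chrX:78103998-78104297 for PGK1 and chr11:10304823-10305122 for ADM.
LDHA: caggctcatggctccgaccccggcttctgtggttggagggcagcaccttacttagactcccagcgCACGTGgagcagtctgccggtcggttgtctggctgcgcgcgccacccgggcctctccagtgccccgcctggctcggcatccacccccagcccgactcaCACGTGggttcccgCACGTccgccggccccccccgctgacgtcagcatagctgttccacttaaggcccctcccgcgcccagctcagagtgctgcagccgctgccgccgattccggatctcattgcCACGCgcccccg
PGK1: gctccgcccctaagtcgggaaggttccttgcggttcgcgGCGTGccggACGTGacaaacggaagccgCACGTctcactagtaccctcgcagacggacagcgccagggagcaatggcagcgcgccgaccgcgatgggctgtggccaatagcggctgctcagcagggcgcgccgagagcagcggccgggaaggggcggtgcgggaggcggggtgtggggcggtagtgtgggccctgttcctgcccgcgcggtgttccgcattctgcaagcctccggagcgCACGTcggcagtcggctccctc
ADM: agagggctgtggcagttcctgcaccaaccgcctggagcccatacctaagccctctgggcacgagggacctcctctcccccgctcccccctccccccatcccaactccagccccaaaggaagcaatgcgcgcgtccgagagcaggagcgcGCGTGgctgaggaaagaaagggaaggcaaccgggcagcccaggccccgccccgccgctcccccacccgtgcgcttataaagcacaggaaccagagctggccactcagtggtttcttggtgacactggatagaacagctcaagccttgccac
The LDHA window held 5 matches to ACGTG and 1 to GCGTG, where CACGTG counts as 2 matches to ACGTG because it reads the same on both strands. The PGK1 window held 3 and 1 matches, and the ADM window held 0 and 1. A second RefSeq start of LDHA had a window with 0 and 1 matches.

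RefSeq windows were found for 33 of the 39 genes. At least 1 of the motifs stood in a window of 31 of these 33 genes (93.9%), against 52.4% of all 27305 RefSeq genes with a window. Counted by window rather than by gene, 41 of 61 windows (67.2%) held a match, against 48.4% of 35116 windows. Windows of the set were also richer in G and C (median 68.0%) than all windows (median 58.7%), and matches to these GC-rich letters were not corrected for that. All 20 genes that rose and had a window held a match, as did 3 of 5 that fell and 7 of 7 that did not pass the test. The 2 that fell without a match were PGAM1 and EGLN3. The windows of PGAM1, EGLN3, PGK1 and ADM lie downstream of the outermost start that GENCODE 29 gives for each gene. So do those of other genes in the set that held a match, among them GAPDH, SLC2A1, ENO1, PKM, EPAS1 and GPI. Such windows need not be the promoter in use here. A match is a string of letters and not a site shown to be bound.

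MUC1, the gene the hairpin targets, read 1.53, 1.31 and 1.32 CPM (reads scaled to library size and composition) in DOX-positive libraries, against 20.4, 21.8 and 22.2 CPM in DOX-negative libraries. The groups were far apart, a 15.5-fold lower level in DOX-positive cells (log2 fold change -3.96, SE 0.08, edgeR adjusted p = 5.12e-16), which goes with the labels. Libraries held 105358357 to 150921436 reads in DOX-positive cells and 87739734 to 138844816 reads in DOX-negative cells. The labels give triplicate cultures and no more, so p-values measure the spread among these samples. Mitochondrially encoded genes took 5.49% to 6.21% of reads in DOX-positive libraries and 4.35% to 5.67% in DOX-negative libraries. Markers that DU-145 cells are known to express (the keratins KRT8, KRT18, KRT7 and KRT19, the adhesion genes EPCAM and CDH1, and VIM) rose in all 7 tested cases, and KRT5 was at 0 in all libraries. Their summed level was 3580 to 3754 CPM in DOX-positive libraries and 1823 to 1912 CPM in DOX-negative libraries. By the mean over all 6 libraries, fibroblast and endothelial markers (9 of 10 under 1 CPM) summed to 5.19 to 5.55 CPM in DOX-positive and 7.00 to 8.21 CPM in DOX-negative libraries. Leukocyte markers (11 of 11 under 1 CPM by the same mean, 4 at 0) summed to 1.38 to 1.79 CPM in DOX-positive and 1.69 to 1.93 CPM in DOX-negative libraries. Singled out after their values were seen, CSF1R averaged 1.19 CPM in DOX-positive and 0.541 CPM in DOX-negative libraries, and CD14 averaged 0.286 CPM in DOX-positive and 1.02 CPM in DOX-negative libraries. Of 7 luminal prostate markers 6 were under 1 CPM by this mean, with KLK3 and FOLH1 at 0. The part of these marker and mitochondrial shifts in the results below was not tested.

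Most of the set rose in DOX-positive cells. Of the 39 genes 38 had enough reads to be tested, and 25 were higher, 6 were lower and 7 did not pass (edgeR quasi-likelihood test, Benjamini-Hochberg adjusted p under 0.05). Across the 24695 genes tested 56.5% passed, 27.6% as higher and 28.9% as lower, so changed genes were common throughout the transcriptome. The median log2 fold change was 0.24 over the 38 genes and -0.04 over all genes tested. In 33 of the 38 genes the 3 values of each group did not overlap, against 62.4% of all genes tested. Most of the set draws many reads, and genes with many reads more often rose: among genes with a mean of at least 10 CPM, a limit set after the values were seen, 24 of 31 in the set (77.4%) and 50.6% of 9763 genes overall were higher, while 3 of 31 (9.68%) and 29.1% overall were lower. With libraries scaled to total reads alone, which lowers the median of all genes by 0.14, the split in the set was 21 higher and 10 lower. Together the 39 genes took 1.10%, 1.09% and 1.12% of reads in DOX-positive libraries, against 0.968%, 0.922% and 0.934% in DOX-negative libraries. In these bulk libraries more cells expressing a gene and more mRNA per cell cannot be told apart.

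**Figure D1:**
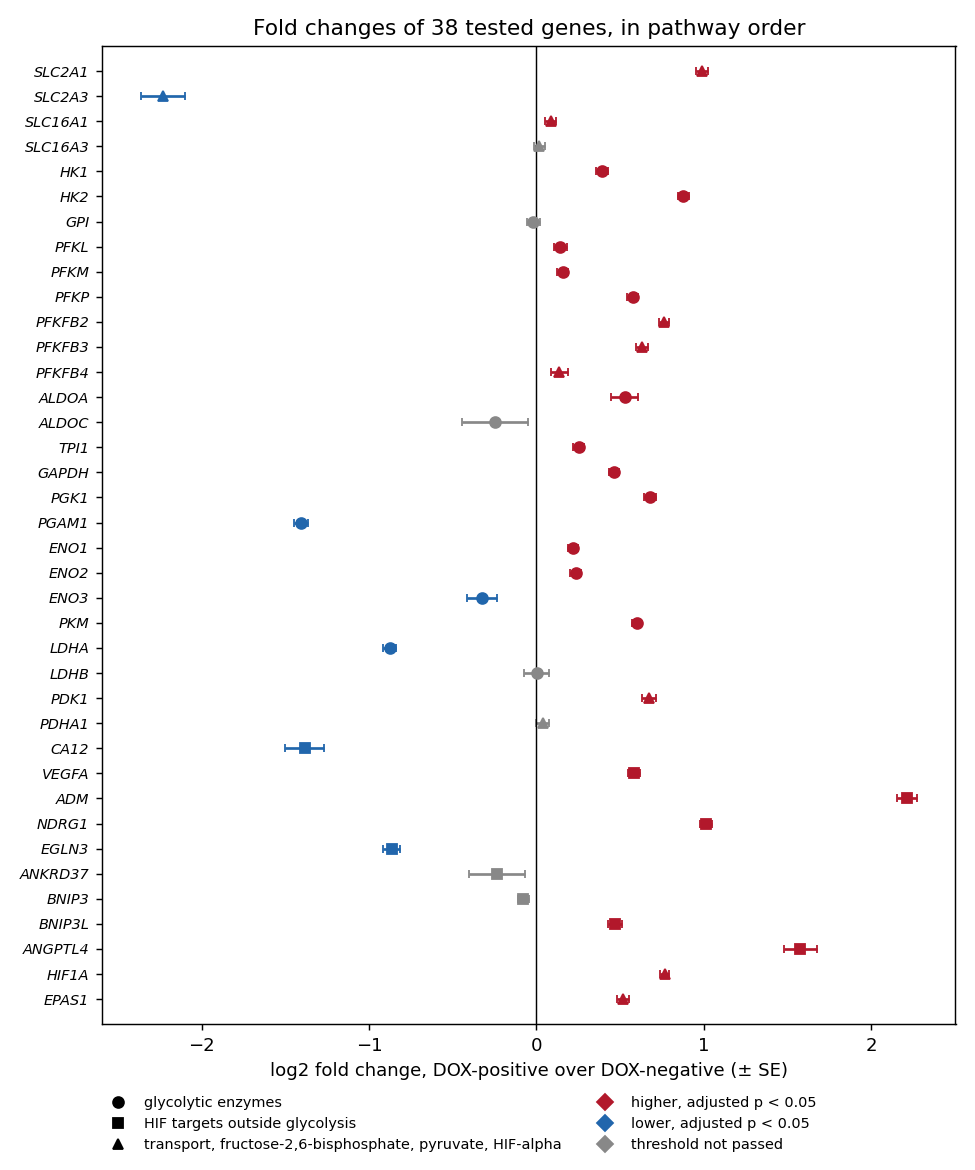
Log2 fold change (x axis, DOX-positive over DOX-negative, bars ± SE) of the 38 tested genes in pathway order (y axis), with marker shape for the class and colour for the test. Points lie mostly to the right of 0, with PGAM1 (-1.40) and LDHA (-0.88) among rising enzymes and ADM (2.21) and SLC2A3 (-2.23) at the ends.

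The mRNAs of the glucose carriers moved apart. SLC2A1 (GLUT1; chr1:42925375-42959176, minus strand, GRCh38), the basal glucose carrier of most cells, read 222.5, 219.2 and 233.1 CPM in DOX-positive libraries, against 112.6, 114.9 and 112.5 CPM in DOX-negative libraries. The groups were well apart, and SLC2A1 rose 1.98-fold (log2 fold change 0.99, SE 0.03, edgeR adjusted p = 4.11e-13). SLC2A3 (GLUT3), a high-affinity carrier best known from neurons, read 0.882, 0.893 and 1.10 CPM in DOX-positive libraries, against 4.12, 4.58 and 4.75 CPM in DOX-negative libraries. All DOX-positive values were below all DOX-negative ones, a 4.70-fold fall (log2 fold change -2.23, SE 0.13, edgeR adjusted p = 2.91e-10). Per kilobase of gene model SLC2A3 was the minor carrier in both groups, with 0.308% ± 0.0295 of the summed SLC2A1 and SLC2A3 level in DOX-positive and 2.80% ± 0.194 in DOX-negative libraries (SD, n = 3 each). The 3 pseudogene rows of SLC2A3 held reads equal to 6.10% to 26.4% of its own, and with them added the log2 ratio was -2.05. The lactate exporters differed little. SLC16A1 (MCT1) averaged 156.2 ± 1.60 CPM in DOX-positive and 147.1 ± 3.29 CPM in DOX-negative libraries, a rise of 0.09 on the log2 scale (edgeR adjusted p = 0.0320) that 6 of 14 other settings did not keep, with -0.0570 under library size alone. SLC16A3 (MCT4), the carrier of lactate-exporting cells, averaged 73.6 ± 2.49 CPM in DOX-positive and 72.6 ± 2.24 CPM in DOX-negative libraries and did not pass (log2 fold change 0.02, SE 0.03).

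The upper part of glycolysis, which spends ATP, was higher at its regulated steps. HK2, the hexokinase isozyme that is induced in many tumours and binds mitochondria, read 119.8, 121.5 and 124.6 CPM in DOX-positive libraries, against 67.7, 65.5 and 65.9 CPM in DOX-negative libraries. Its groups did not come near each other, and HK2 rose 1.84-fold (log2 fold change 0.88, SE 0.03, edgeR adjusted p = 8.56e-13). HK1, the housekeeping isozyme, rose less, with 166.5 ± 2.72 CPM in DOX-positive and 126.8 ± 4.46 CPM in DOX-negative libraries (log2 fold change 0.39, SE 0.03). Per kilobase HK2 made up 43.8% ± 0.722 of hexokinase mRNA in DOX-positive libraries and 35.8% ± 0.540 in DOX-negative libraries. The shares did not overlap, and the exact two-sided permutation test gave p = 0.1, the smallest that 3 against 3 libraries allow.

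GPI, which turns glucose-6-phosphate into fructose-6-phosphate, did not pass the test, with 458.7, 474.9 and 494.7 CPM in DOX-positive libraries and 490.1, 457.0 and 499.7 CPM in DOX-negative libraries. The groups overlapped (log2 fold change -0.02, SE 0.04, edgeR adjusted p = 0.695). All 3 subunit genes of phosphofructokinase, the committed step, rose, although with library size alone PFKL read -0.0021 on the log2 scale. PFKP, the platelet-type subunit, read 364.2, 355.8 and 374.8 CPM in DOX-positive libraries, against 247.2, 245.5 and 243.1 CPM in DOX-negative libraries. These groups lay far apart (log2 fold change 0.57, SE 0.03, edgeR adjusted p = 1.29e-10). PFKL and PFKM, the liver and muscle types, rose by 0.14 and 0.16 on the log2 scale, but with library size alone neither kept its call, and PFKM read 0.0145 there. PFKL also lost its call under upper-quartile scaling. PFKP therefore took a larger share of the length-scaled phosphofructokinase level, 78.5% ± 0.141 in DOX-positive and 73.2% ± 0.658 in DOX-negative libraries (exact permutation p = 0.1).

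The bifunctional enzymes that make and break fructose-2,6-bisphosphate, the strongest activator of phosphofructokinase, also rose, although with library size alone PFKFB4 read -0.0063 on the log2 scale. PFKFB2, the heart-type isozyme, read 101.9, 101.4 and 99.9 CPM in DOX-positive libraries, against 59.4, 60.9 and 58.4 CPM in DOX-negative libraries, a clear separation (log2 fold change 0.76, SE 0.03, edgeR adjusted p = 3.40e-12). PFKFB3, the isozyme with the highest kinase activity, averaged 87.3 ± 2.44 CPM in DOX-positive and 56.4 ± 2.93 CPM in DOX-negative libraries (log2 fold change 0.63, SE 0.04). PFKFB4 averaged 16.7 ± 0.405 CPM in DOX-positive and 15.1 ± 0.907 CPM in DOX-negative libraries (log2 fold change 0.14, edgeR adjusted p = 0.0365), a call that 8 of 14 other settings did not keep, among them the fit with the replicate number as a block (adjusted p = 0.0532). Within this trio PFKFB4 gave up share, with 10.1% in DOX-positive and 14.1% in DOX-negative libraries, while the PFKFB3 share overlapped between groups at 53.0% and 52.5% (exact permutation p = 0.6).

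Aldolase, which cleaves fructose-1,6-bisphosphate, had the lowest summed level per kilobase of the 11 enzyme steps in both groups. ALDOA read 17.1, 13.9 and 15.5 CPM in DOX-positive libraries, against 9.95, 12.0 and 10.1 CPM in DOX-negative libraries, and rose without overlap between groups (log2 fold change 0.53, SE 0.08, edgeR adjusted p = 2.92e-05). ALDOA shares 42.3% of its exon bases on the same strand with AC093512.2 in GENCODE 29. That gene had 191, 213 and 184 reads in DOX-positive and 117, 253 and 80 reads in DOX-negative libraries. How reads in shared exons were counted is not given, so the ALDOA level is uncertain. ALDOC, the brain-type isozyme, was near the limit of the test at 0.705 ± 0.149 CPM in DOX-positive and 0.841 ± 0.0502 CPM in DOX-negative libraries (log2 fold change -0.25, SE 0.20, edgeR adjusted p = 0.309).

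The middle steps, from triose phosphates to 3-phosphoglycerate, were higher. TPI1, which interconverts the triose phosphates, averaged 395.0 ± 9.23 CPM in DOX-positive and 331.5 ± 10.9 CPM in DOX-negative libraries (log2 fold change 0.25, SE 0.03). GAPDH, the NAD+-dependent step and a common normalisation gene, read 1559, 1491 and 1606 CPM in DOX-positive libraries, against 1159, 1123 and 1100 CPM in DOX-negative libraries. No GAPDH value crossed between groups, and the gene rose 1.38-fold (log2 fold change 0.46, SE 0.03, edgeR adjusted p = 6.87e-10). Its 62 pseudogene rows held reads equal to 1.09% to 2.43% of its own. PGK1, the first ATP-yielding enzyme, read 316.1, 323.0 and 338.2 CPM in DOX-positive libraries, against 207.7, 196.4 and 206.4 CPM in DOX-negative libraries. The groups were distinct, and PGK1 rose 1.60-fold (log2 fold change 0.68, SE 0.04, edgeR adjusted p = 7.32e-11).

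PGAM1, the mutase that follows PGK1, broke this run. PGAM1 (ENSG00000171314.9, chr10:97426160-97433441, plus strand, GRCh38) read 89.0, 89.3 and 95.7 CPM in DOX-positive libraries, against 253.7, 228.7 and 242.7 CPM in DOX-negative libraries. Every DOX-positive value was under 100 CPM and every DOX-negative value was above 200 CPM. The gene fell 2.65-fold (log2 fold change -1.40, SE 0.04, edgeR adjusted p = 7.88e-14). PGAM1 shares no exon bases with another gene in GENCODE 29, on either strand. Its 13 pseudogene rows held reads equal to 0.987% to 2.84% of its own, and with them added the log2 ratio was -1.39. Within a library, PGAM1 over PGK1 was 0.602, 0.592 and 0.606 in DOX-positive cells and 2.61, 2.49 and 2.52 in DOX-negative cells, a ratio of levels in CPM per kilobase that was chosen after they were seen. Scaling between libraries cancels in it.

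Below the mutase, enolase and pyruvate kinase were higher. ENO1, the ubiquitous enolase, averaged 1469 ± 32.1 CPM in DOX-positive and 1262 ± 53.6 CPM in DOX-negative libraries (log2 fold change 0.22, SE 0.03), and ENO2, the neuronal type, rose by 0.23 on the same scale. ENO3, the muscle type, fell, with 5.16 ± 0.398 CPM in DOX-positive and 6.47 ± 0.523 CPM in DOX-negative libraries (log2 fold change -0.32, SE 0.09, edgeR adjusted p = 0.00461). It shares 2.59% of its exon bases on the opposite strand with PFN1, which had 525216 reads in all libraries together. The strand setting of the counts is not given, so the ENO3 level is uncertain. ENO1 held 95.8% ± 0.135 of the length-scaled enolase level in DOX-positive and 95.6% ± 0.166 in DOX-negative libraries, and these shares overlapped (exact permutation p = 0.4). PKM, which makes pyruvate and ATP and whose splice forms gene counts do not separate, read 2189, 2180 and 2317 CPM in DOX-positive libraries, against 1520, 1423 and 1474 CPM in DOX-negative libraries. The PKM groups were far apart (log2 fold change 0.60, SE 0.03, edgeR adjusted p = 2.09e-11).

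LDHA, the main subunit of the enzyme that turns pyruvate into lactate, went the other way. LDHA (ENSG00000134333.14, chr11:18394388-18408425, plus strand, GRCh38; promoter shown above) read 365.5, 362.8 and 378.2 CPM in DOX-positive libraries, against 720.0, 635.3 and 675.3 CPM in DOX-negative libraries. The DOX-positive libraries were tightly grouped and all below the lowest DOX-negative one, a 1.84-fold fall (log2 fold change -0.88, SE 0.04, edgeR adjusted p = 8.97e-12). LDHA shares no exon bases with another gene, and its 6 pseudogene rows added reads equal to 0.208% to 0.293% of its own. LDHB, the subunit that favours lactate use, stood at 6.43 ± 0.274 CPM in DOX-positive and 6.43 ± 0.197 CPM in DOX-negative libraries, and did not pass (log2 fold change 0.00, SE 0.07, edgeR adjusted p = 0.993). Of its exon bases 33.4% lie on the same strand as AC010197.2, so its level is uncertain. The ratio of LDHA to PKM in CPM per kilobase, also chosen after its values were seen, was 0.237, 0.236 and 0.232 in DOX-positive libraries and 0.672, 0.634 and 0.650 in DOX-negative libraries.

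**Figure D2:**
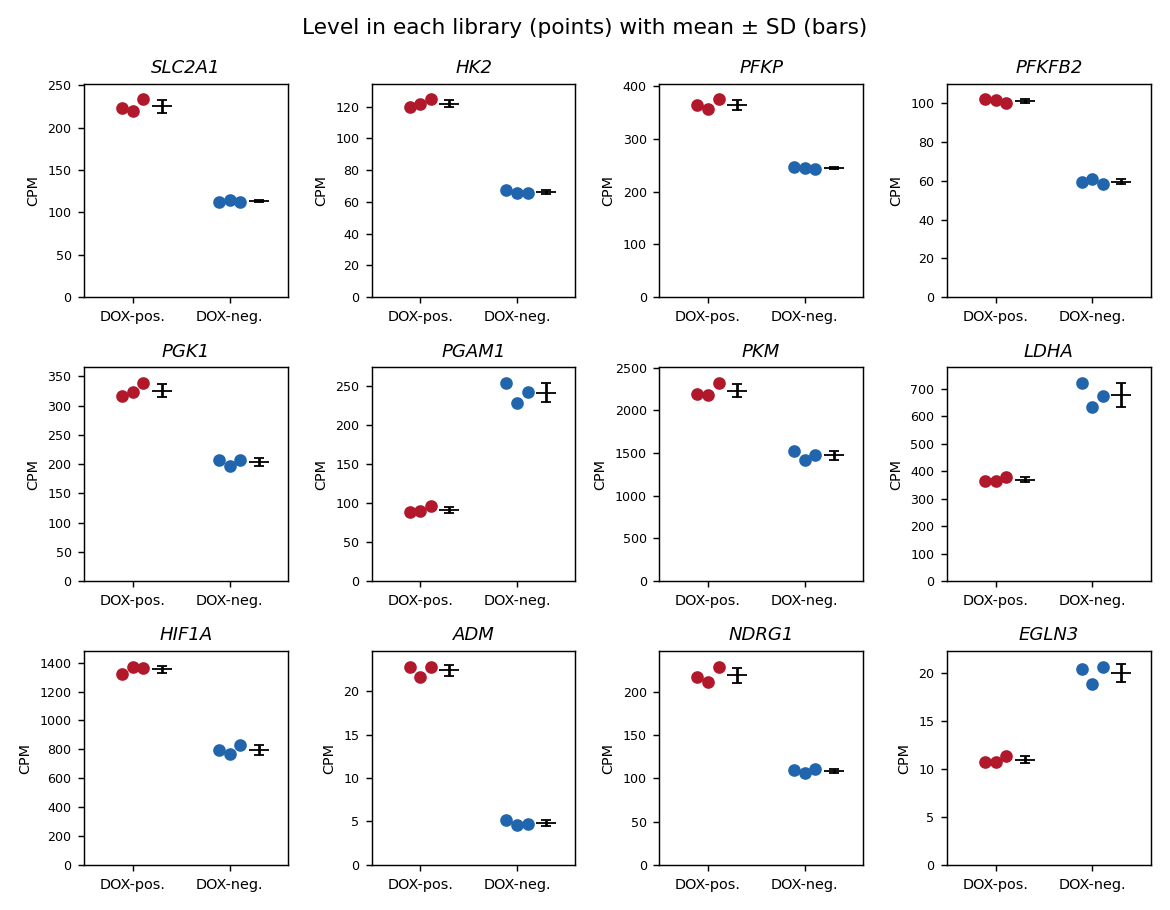
CPM (y axis, from 0) of 12 genes in each of 3 DOX-positive and 3 DOX-negative libraries (points), with mean ± SD (bars). PGAM1, LDHA and EGLN3 sit lower in DOX-positive libraries and the other 9 genes sit higher, with no overlap in any panel.

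By class, 12 of 18 glycolytic enzymes (66.7%) rose, 3 (16.7%) fell (PGAM1, LDHA and ENO3) and 3 did not pass (GPI, ALDOC and LDHB), beside 50.6% higher and 29.1% lower among genes with at least 10 CPM. The median was 0.23 on the log2 scale. Summing CPM per kilobase of gene model over the isozymes of a step among these 18 enzymes gives the level at each step. Genes of the further lists below are left out of these sums. Among them are ADPGK and HKDC1, which also act on glucose. ADPGK stood at 3.51 in DOX-positive and 9.26 in DOX-negative libraries, and HKDC1 at 0.284 and 0.684. Hexokinase stood at 47.1 ± 0.493 in DOX-positive and 31.4 ± 0.877 in DOX-negative libraries, a ratio of 1.50, and phosphofructokinase at 83.7 ± 2.06 in DOX-positive and 60.4 ± 1.05 in DOX-negative libraries, a ratio of 1.39. Pyruvate kinase stood at 260.0 ± 8.97 in DOX-positive and 171.8 ± 5.65 in DOX-negative libraries, a ratio of 1.51. The irreversible steps were thus all higher. Phosphoglycerate mutase stood at 36.0 ± 1.50 in DOX-positive and 95.2 ± 4.93 in DOX-negative libraries, a ratio of 0.378, and lactate dehydrogenase at 63.2 ± 1.35 in DOX-positive and 114.3 ± 6.97 in DOX-negative libraries, a ratio of 0.553. The only other step of the 11 with a ratio below 1 was glucose-6-phosphate isomerase, at 0.987, where the groups overlapped. Over all 18 enzymes the summed level was 1687 ± 47.8 in DOX-positive and 1405 ± 43.9 in DOX-negative libraries, and GAPDH alone made up 647.8 and 470.5 of these sums. In the order of levels, GAPDH stood first and enolase and pyruvate kinase followed in both groups. The level of phosphoglycerate mutase was above that of phosphofructokinase in DOX-negative libraries and below it in DOX-positive ones. The gene length used for this scaling comes from the deposited table and covers the gene model, not the transcript in use.

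**Figure D3:**
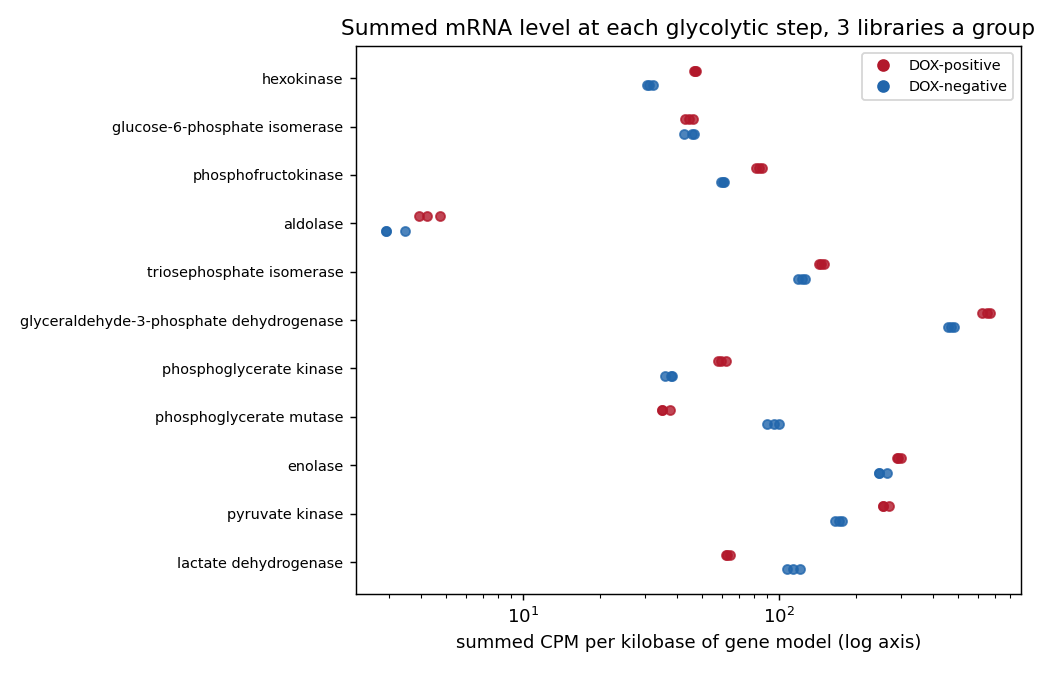
Summed CPM per kilobase of gene model (x axis, log scale) at each of 11 glycolytic steps (y axis, top to bottom in pathway order) in 3 DOX-positive (red, upper) and 3 DOX-negative (blue, lower) libraries. Phosphoglycerate mutase (36.0 in DOX-positive, 95.2 in DOX-negative) and lactate dehydrogenase (63.2 in DOX-positive, 114.3 in DOX-negative) are the steps where the red points lie to the left without overlap.

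**Figure D4:**
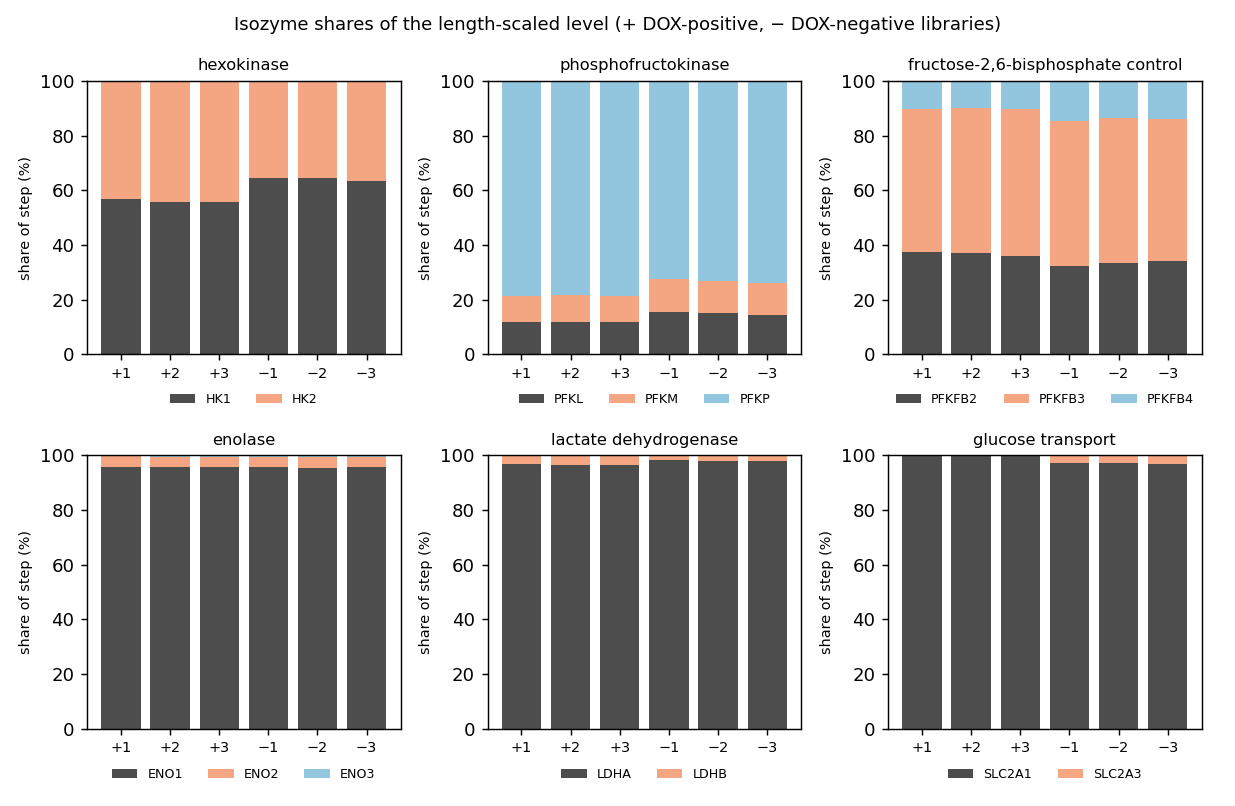
Share (y axis, %) of the summed CPM per kilobase taken by each isozyme in 6 groups of related genes, with 3 DOX-positive libraries (+1 to +3) left of 3 DOX-negative libraries (−1 to −3). HK2 (43.8% in DOX-positive, 35.8% in DOX-negative) and PFKP (78.5% in DOX-positive, 73.2% in DOX-negative) hold larger shares in DOX-positive libraries, and ENO1 holds about the same share in all 6.

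At the entry of pyruvate into mitochondria, PDK1, the kinase that switches pyruvate dehydrogenase off, read 37.5, 38.6 and 41.7 CPM in DOX-positive libraries, against 25.6, 24.5 and 23.9 CPM in DOX-negative libraries. Its groups did not overlap (log2 fold change 0.67, SE 0.04, edgeR adjusted p = 1.06e-09). PDHA1, the subunit PDK1 phosphorylates, averaged 25.5 ± 0.738 CPM in DOX-positive and 24.9 ± 0.373 CPM in DOX-negative libraries and did not pass (log2 fold change 0.04, SE 0.04, edgeR adjusted p = 0.436). PDHA1 shares 21.3% of its exon bases with MAP3K15 on the opposite strand. Without a stated strand setting the reads of such a pair cannot be told apart.

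Both HIF alpha subunits rose at the mRNA level. HIF1A (chr14:61695513-61748259, plus strand, GRCh38), the subunit that drives most glycolytic targets, read 1324, 1369 and 1366 CPM in DOX-positive libraries, against 794.6, 764.7 and 829.8 CPM in DOX-negative libraries. The lowest DOX-positive value was well above the highest DOX-negative one, a 1.70-fold rise (log2 fold change 0.76, SE 0.03, edgeR adjusted p = 1.77e-12). EPAS1, which encodes HIF-2 alpha, averaged 426.8 ± 14.9 CPM in DOX-positive and 298.3 ± 5.64 CPM in DOX-negative libraries (log2 fold change 0.52, SE 0.03). HIF1A made up 81.8% ± 0.544 of the length-scaled pair in DOX-positive and 79.1% ± 0.381 in DOX-negative libraries (exact permutation p = 0.1).

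Of the 9 tested HIF targets outside glycolysis 5 (55.6%) were higher, 2 (22.2%) were lower and 2 did not pass, where 27.6% of all genes tested were higher and 28.9% lower, and 50.6% and 29.1% of genes with at least 10 CPM. Their log2 fold changes ran from -1.38 to 2.21 with a median of 0.47, against -1.40 to 0.88 among the enzymes. ADM (chr11:10304680-10307397, plus strand, GRCh38; promoter shown above) encodes adrenomedullin, a vasodilator peptide. It read 22.8, 21.7 and 22.8 CPM in DOX-positive libraries, against 5.21, 4.63 and 4.72 CPM in DOX-negative libraries. The groups were far apart, and ADM rose 4.63-fold (log2 fold change 2.21, SE 0.06, edgeR adjusted p = 2.33e-14). ANGPTL4, a secreted inhibitor of lipoprotein lipase, read 8.64, 7.79 and 8.28 CPM in DOX-positive libraries, against 2.75, 3.11 and 2.36 CPM in DOX-negative libraries. It rose 2.98-fold without overlap (log2 fold change 1.58, SE 0.10, edgeR adjusted p = 6.59e-10). VEGFA, the angiogenic growth factor, rose less, at 525.1 ± 13.8 CPM in DOX-positive and 351.1 ± 16.4 CPM in DOX-negative libraries (log2 fold change 0.58, SE 0.04). NDRG1, a stress-induced gene known as a differentiation and metastasis-related factor, read 217.1, 211.7 and 228.6 CPM in DOX-positive libraries, against 109.4, 106.2 and 110.7 CPM in DOX-negative libraries. It rose 2.01-fold with distinct groups (log2 fold change 1.01, SE 0.04, edgeR adjusted p = 6.53e-13).

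The mitophagy receptors differed from each other. BNIP3L averaged 427.4 ± 15.8 CPM in DOX-positive and 309.1 ± 17.4 CPM in DOX-negative libraries and rose (log2 fold change 0.47, SE 0.04, edgeR adjusted p = 3.51e-08). BNIP3, its paralogue, read 105.7, 108.4 and 108.8 CPM in DOX-positive libraries, against 114.5, 110.7 and 115.6 CPM in DOX-negative libraries. All DOX-positive values were slightly lower, but the gene just missed the threshold (log2 fold change -0.08, SE 0.03, edgeR adjusted p = 0.0509), and 5 of 14 other settings called it lower. Its 39 pseudogene rows held reads equal to 5.39% to 6.79% of its own. The difference between the paralogues was not tested.

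EGLN3, the HIF prolyl hydroxylase whose mRNA is itself strongly HIF-induced, was lower. It read 10.7, 10.7 and 11.4 CPM in DOX-positive libraries, against 20.4, 18.9 and 20.6 CPM in DOX-negative libraries. The groups were distinct, a 1.82-fold fall (log2 fold change -0.87, SE 0.05, edgeR adjusted p = 4.97e-10). CA12, a membrane carbonic anhydrase that handles acid outside the cell, read 1.86, 1.86 and 1.89 CPM in DOX-positive libraries, against 4.17, 5.19 and 5.24 CPM in DOX-negative libraries. It fell 2.61-fold with no overlap (log2 fold change -1.38, SE 0.12, edgeR adjusted p = 2.79e-08). CA9, its relative and a widely used tissue marker of hypoxia, had 0, 4 and 0 reads in DOX-positive libraries and 0, 1 and 0 reads in DOX-negative libraries, and was not tested. At these depths a count of 0 allows up to 3 reads, which is 0.0285 CPM in DOX-positive replicate 1. ANKRD37, an ankyrin-repeat gene often used in hypoxia signatures, averaged 0.906 ± 0.0863 CPM in DOX-positive and 1.07 ± 0.0913 CPM in DOX-negative libraries and did not pass (log2 fold change -0.24, SE 0.17, edgeR adjusted p = 0.254). It shares 35.2% of its exon bases with UFSP2 on the opposite strand.

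The wider pathway was read from further lists, each set beside the 27.6% higher and 28.9% lower among all genes tested. Among genes with a mean of at least 10 CPM these shares were 50.6% and 29.1%. The lists hold genes above and below that level, so neither pair of shares is matched to a list. Among regulators of HIF, 7 of 17 tested genes were higher and 8 lower, with a median log2 fold change of -0.05. ARNT, the partner of the alpha subunits, averaged 172.1 ± 0.430 CPM in DOX-positive and 155.8 ± 2.18 CPM in DOX-negative libraries (log2 fold change 0.14, SE 0.03). ARNT2, its neural relative, fell to 24.9 ± 2.12 CPM in DOX-positive libraries, against 50.6 ± 0.706 CPM in DOX-negative libraries. The genes that restrain HIF moved in different directions. EGLN1, the main prolyl hydroxylase, rose by 0.26 and HIF1AN, the asparagine hydroxylase, by 0.52 on the log2 scale, while VHL, the ubiquitin ligase subunit that recognises hydroxylated HIF, fell by 0.25. ELOB and ELOC, which join VHL in the ligase, rose by 0.67 and 0.57. CITED2, an inhibitor of HIF that competes for its coactivators, averaged 370.1 ± 7.01 CPM in DOX-positive and 202.2 ± 12.0 CPM in DOX-negative libraries (log2 fold change 0.87, SE 0.04). EGLN2 had a low counted level, at 1.74 ± 0.226 CPM in DOX-positive and 2.43 ± 0.420 CPM in DOX-negative libraries. Its groups overlapped although the test called it lower. Overlap of EGLN2 exons with other genes was not checked, and how reads in shared exons were counted is not given. The EGLN2 level is therefore uncertain. EGLN3 over EGLN1, a ratio of levels in CPM per kilobase chosen after they were seen, was 0.281 ± 0.00635 in DOX-positive and 0.616 ± 0.0126 in DOX-negative libraries.

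Of 42 tested genes on a list of other hypoxia-induced genes, 20 (47.6%) were higher, 10 (23.8%) lower and 12 did not pass. Their median was 0.11 on the log2 scale. The share that rose was near that of all genes with at least 10 CPM, where 50.6% were higher and 29.1% lower. STC1, a secreted glycoprotein, averaged 217.0 ± 4.85 CPM in DOX-positive and 45.6 ± 4.25 CPM in DOX-negative libraries (log2 fold change 2.25, SE 0.05). LOX, which crosslinks collagen, averaged 58.8 ± 1.74 CPM in DOX-positive and 12.6 ± 0.0707 CPM in DOX-negative libraries (log2 fold change 2.22, SE 0.04). ERO1A, the oxidase of disulfide formation, and TFRC, the transferrin receptor, rose by 0.91 and 0.86 on the log2 scale. These 4 genes had the smallest p-values of the list. Among the 10 that fell were PPFIA4 (log2 fold change -1.05) and CCNG2 (-0.95).

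Other transporters of glucose and monocarboxylates mostly fell, with 13 of 16 tested genes lower and 1 higher, and a median log2 fold change of -0.77. SLC2A10 fell by 1.67, SLC2A12 by 1.10 and SLC2A13, an inositol carrier, by 0.54 on the log2 scale. The gene that rose was BSG, the chaperone of the lactate carriers, at 454.1 ± 7.89 CPM in DOX-positive and 370.2 ± 23.2 CPM in DOX-negative libraries (log2 fold change 0.29, SE 0.04). Other isoforms of glycolytic and PFKFB enzymes also leaned lower, with 7 of 12 tested genes lower and 1 higher, and a median of -0.74. ADPGK, an ADP-dependent glucokinase, averaged 20.8 ± 0.765 CPM in DOX-positive and 54.9 ± 1.59 CPM in DOX-negative libraries (log2 fold change -1.40, SE 0.04). TIGAR, a phosphatase that lowers fructose-2,6-bisphosphate, averaged 16.6 ± 1.16 CPM in DOX-positive and 35.8 ± 2.03 CPM in DOX-negative libraries (log2 fold change -1.11, SE 0.05). HKDC1, a further hexokinase, fell by 1.26, and BPGM, which makes the 2,3-bisphosphoglycerate that primes the mutase, fell by 0.41. PGAM4, a retrogene nearly identical to PGAM1, stood at 0.858 ± 0.171 CPM in DOX-positive and 1.74 ± 0.483 CPM in DOX-negative libraries, and its reads cannot be told apart from those of PGAM1 with certainty.

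Pathways that branch from glycolysis were mixed. In the pentose phosphate pathway 4 of 9 tested genes were higher and 4 lower, with a median log2 fold change of 0.00. PGD, the 6-phosphogluconate dehydrogenase of the oxidative arm, stood at 120.0 ± 2.21 CPM in DOX-positive and 192.6 ± 7.71 CPM in DOX-negative libraries, and fell by 0.68 on the log2 scale. H6PD, an enzyme of the endoplasmic reticulum, fell by 0.32, and RPIA of the non-oxidative arm rose by 0.66. In glycogen metabolism 9 of 12 tested genes were higher and 1 lower, with a median of 0.34. UGP2, which makes UDP-glucose, rose by 0.47, GYG1, the primer of glycogen, by 0.52 and PGM1, which links glycogen to glucose-6-phosphate, by 0.40. Among 6 tested genes of gluconeogenesis 3 were higher, namely PCK2, the mitochondrial carboxykinase (log2 fold change 0.33), G6PC3 (0.28) and SLC37A4 (0.17), and 2 were lower, among them FBP1 (-0.40).

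Of 12 tested genes of pyruvate dehydrogenase and the mitochondrial pyruvate carrier 6 were higher and 3 lower, with a median of 0.10. PDP1, the phosphatase that reverses the action of PDK1, averaged 338.2 ± 5.28 CPM in DOX-positive and 158.9 ± 4.88 CPM in DOX-negative libraries (log2 fold change 1.09, SE 0.03). The mRNAs of PDK1 and PDP1 thus both rose, but the other kinases of this enzyme did not. PDK3 averaged 96.4 CPM in DOX-positive and 105.2 CPM in DOX-negative libraries and was called lower (log2 fold change -0.12). PDK4 was also called lower (-0.99), and PDK2 did not pass (0.01). MPC2, a carrier subunit, and DLD, the shared dehydrogenase, rose by 0.72 and 0.46, and PDPR, the regulator of the phosphatase, fell by 0.50. Among 9 tested transcription factors and sensors of glucose metabolism 5 were higher and 4 lower. TXNIP, a glucose-induced arrestin that restrains glucose uptake, averaged 321.1 ± 9.18 CPM in DOX-positive and 115.4 ± 4.64 CPM in DOX-negative libraries (log2 fold change 1.48, SE 0.04). MYC, an activator of many glycolytic genes, averaged 232.3 ± 3.71 CPM in DOX-positive and 197.6 ± 2.09 CPM in DOX-negative libraries (log2 fold change 0.23, SE 0.03). MLXIP rose by 0.32, and MLXIPL, the carbohydrate-response factor ChREBP, fell by 0.64.

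**Figure D5:**
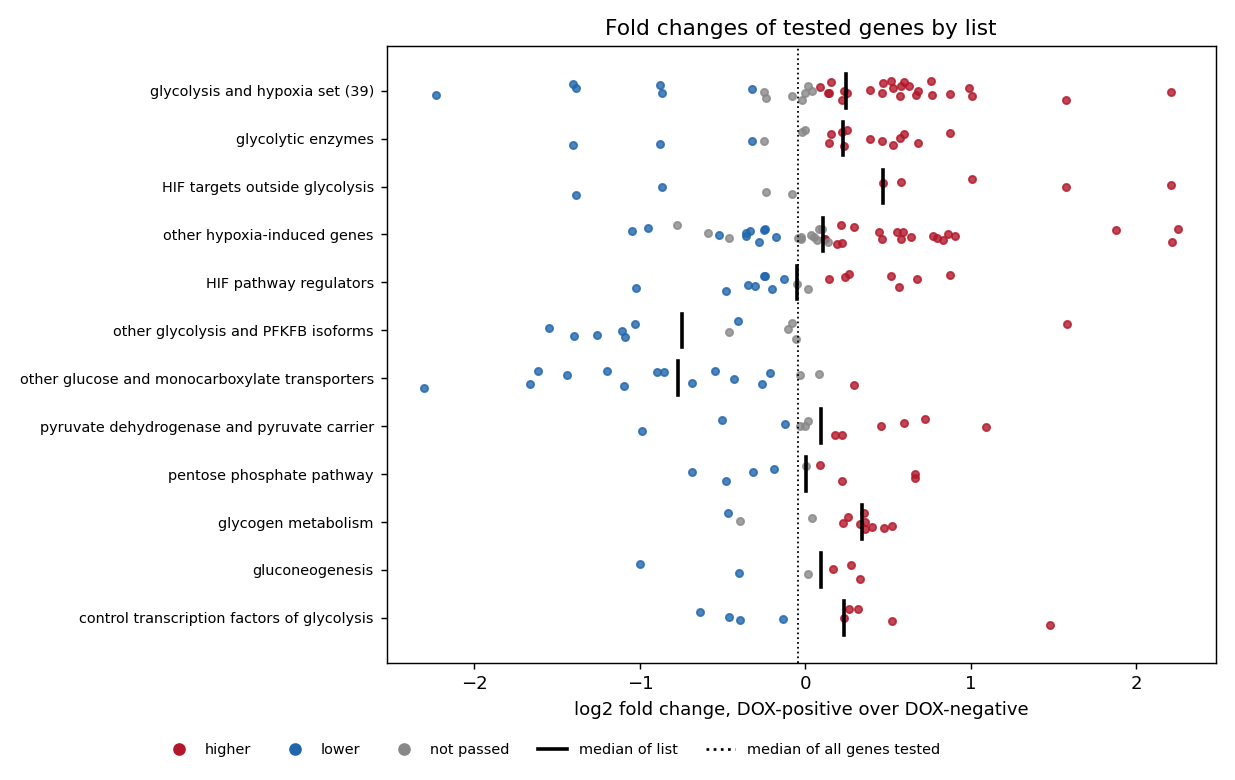
Log2 fold change (x axis, DOX-positive over DOX-negative) of the tested genes of each list (points, coloured by the test; vertical jitter only), with the list median (bar) and the median of all genes tested (dotted line, -0.04). The transporter list (median -0.77) and the other isoforms (median -0.74) lie to the left, while HIF targets outside glycolysis (median 0.47) spread from -1.38 to 2.21.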

How the data were processed

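RNA from 6 DU-145 cultures was sequenced from stranded polyadenylated libraries, per the labels' protocols. The authors deposited whole-number read counts per gene, not normalized, with a gene length for each of 60662 genes. Tools listed without a role in the submitters' processing notes are STAR 2.7.9a, CASAVA 1.8.2 and DESeq2 1.24.0, and the build is GRCh38.p7. Counting tool, annotation, strand setting and handling of shared reads: not given in the sources used here. Exon overlaps and positions came from GENCODE 29 (GRCh38).

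Groups and replicate numbers came from the sample titles. Counts were tested with edgeR 4.0.16 in R 4.3.3 (quasi-likelihood test, TMM scaling, default filterByExpr with a minimum count of 10, group as the only term), which kept 24695 genes. Adjusted p-values are Benjamini-Hochberg over these. The SE is the absolute log2 fold change over the square root of F. CPM uses TMM-scaled library sizes, and levels are compared between genes per kilobase of the deposited length, which gives the same shares within a step as TPM. Rows without a gene symbol took 0.000418% to 0.000482% of reads in DOX-positive and 0.000582% to 0.000605% in DOX-negative libraries. A count of 0 allows up to 3 reads, for counting error only. Replicates of a group differed by 6.40 to 20.8 in chi-square per degree of freedom, so no pair agreed within sampling noise.

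The 39 genes, the 13 further lists and the tests were chosen with earlier results of these data known. Text names all 39 genes, MUC1, up to 4 called genes per further list with the smallest p-values and a mean of at least 1 CPM, 7 regulators (ARNT, VHL, EGLN1, EGLN2, HIF1AN, MYC and TXNIP) whatever their result, and pseudogene rows. Of the genes this rule names, 4 are not reported here. PGAM4, PDK2, PDK3 and PDK4 were named after their values were seen. PFKFB1 stands on more than 1 list. The test was checked on simulated counts. Alternatives were other scalings (DESeq2 size factors, upper quartile, library size alone), no filter, at least 1 CPM in 3 libraries, DESeq2 1.42.0, limma-voom (limma 3.58.1), the replicate block and each library left out. Figures were drawn with matplotlib 3.10.9.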

Additional observations from a re-analysis of the deposited data

How the results depend on the processing

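The counts of higher and lower genes stayed within 1.5 times of those reported under the alternatives run, except that library size alone gave 10 lower genes in the set of 39, against 6. The added calls there were GPI (-0.16), BNIP3 (-0.22), SLC16A3 (-0.13) and PDHA1 (-0.11), and that scaling lowers the median of all genes by 0.14. Leaving out each library in turn gave 23 to 25 higher and 6 to 7 lower genes. The labels do not say whether equal replicate numbers pair the libraries. Correlations of deviations between libraries of the same number were -0.07, -0.03 and 0.01. No pairing was seen, but 3 libraries a group are too few to exclude it. With the replicate number as a block 24 genes were higher and 6 lower, and the lost call was PFKFB4 (log2 fold change 0.14). Among log2 fold changes, signs turned for SLC16A1, SLC16A3, GPI, PFKL, PFKFB4, LDHB and PDHA1. Library size alone gave -0.0570 for SLC16A1, -0.0021 for PFKL, -0.0063 for PFKFB4, -0.14 for LDHB and -0.11 for PDHA1. Upper-quartile scaling gave -0.0421 for SLC16A3, -0.0590 for LDHB and -0.0220 for PDHA1. A filter of 1 CPM gave -0.0196 for SLC16A3 and -0.0364 for LDHB. GPI read 0.0080 with DESeq2 size factors, 0.00099 without a filter and 0.0254 in DESeq2. With each library left out, GPI ran from -0.0581 to 0.0265 and LDHB from -0.0228 to 0.0395. The share difference of PFKFB3 was -0.422 percentage points on raw reads, and that of ENO2 ran from -0.0395 to 0.127 with each library left out. The cause was not tested. PGAM1, LDHA, ADM, SLC2A1, SLC2A3 and EGLN3 kept direction and call under all 14 alternatives. ALDOC and ANKRD37 were near 1 CPM in both groups and rest on few reads. SLC2A3 averaged 0.958 CPM and CA12 1.87 CPM in DOX-positive libraries, against 4.49 and 4.87 CPM in DOX-negative libraries. The DOX-positive values of SLC2A3 and CA12 thus rest on fewer reads. With 3 libraries a group no share could reach p under 0.1.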
